A study of Homo sapiens with 6 samples.

Results

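The genes described here are 38 genes of MHC class I and class II antigen presentation, set as a fixed list of names and measured by 150 probe sets. Every probe set that the platform annotation gives to exactly 1 of these genes was taken, out of 18132 genes and 49293 probe sets in all. Of the 38, 21 belong to class I, 14 to class II and 3, the RFX complex, to the control of both. They were measured on 6 Affymetrix arrays of U87 cells, an established human glioma line grown in DMEM with fetal bovine serum. On 3 arrays the cells had received PCGF1-shRNA, a lentiviral hairpin directed at PCGF1, which is a RING finger protein of a Polycomb repressive complex. On the other 3 they had received an NC (negative control) lentivirus. The knockdown samples are named T0 and the control samples T1 without explanation, so whatever these codes stand for and the knockdown cannot be told apart. The labels call the arrays of a group biological replicates but name no separate cultures, so the spread behind every p-value is that between these arrays and may be technical. The labels describe 1 hairpin virus and 1 control virus, and no second hairpin was analysed here.

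MHC class I molecules carry peptides from proteins degraded inside the cell to the surface, where CD8+ T cells read them. The peptides are cut by the proteasome, pumped into the endoplasmic reticulum by the TAP transporter and loaded there with the help of chaperones. MHC class II molecules carry peptides made in endosomes and are read by CD4+ T cells, and they are best known from professional antigen presenting cells, although glioma cells can express them. Both gene sets are switched on by interferon gamma and share a promoter module bound by the RFX complex, on which NLRC5 acts for class I genes and CIITA for class II genes.

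All values are log2 signals centred on the 6-array median of each probe set, and they carry no information on absolute expression. For that reason the labelled cell type could not be checked against the level of its markers. PCGF1 itself had a lower log2 signal on the knockdown arrays, at -0.27, -0.13 and -0.19, against 0.13, 0.27 and 0.29 on the control arrays (difference of -0.43, limma SE 0.06, adjusted p = 0.00410). A two-sided exact permutation test gave p = 0.1, the smallest that 3 arrays against 3 allow. The signal of control probe sets at the 3′ end minus that at the 5′ end can differ with RNA integrity. For ACTB it lay between 0.01 and 0.11 on knockdown arrays and between -0.07 and 0.04 on control arrays. Its group means differed by 0.08 for ACTB and by 0.02 for GAPDH, higher in knockdown. These signals are centred too, so only the difference between groups can be read, not integrity itself. The part of this difference in the results was not tested.

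Of the 38 genes, 7 were higher and 1 was lower in PCGF1 knockdown cells, and 30 did not pass the test (limma, adjusted p under 0.05 over all 18132 genes). The 8 called genes are 21.1% of the list, and 11% of all genes were called. Genes called higher made up 18.4% of the list and 6.36% of all genes, and genes called lower made up 4.63% of all genes. In class I 2 of 21 genes were higher and 0 lower by limma (9.52%, close to the share of all genes). An unadjusted p under 0.05 was found for 8 of the 21 (38.1%, against 26.6% of all genes). In class II 4 of 14 were higher and 1 lower (35.7%), and in the RFX complex 1 of 3 was higher. Whether the classes differ in response was not tested. The changes were small. HLA-DMA, the alpha chain of the class II peptide editor HLA-DM, was 1.32-fold higher. TAP1, a subunit of the peptide transporter, was 1.27-fold higher, and NLRC5, the class I transactivator, 1.25-fold. CD74 (the class II invariant chain), HLA-DPA1, HLA-DMB and the RFX subunit gene RFXANK were 1.14-fold to 1.18-fold higher. CTSS, an endosomal protease, was 1.19-fold lower. In bulk samples fewer cells that express a gene and less RNA per cell cannot be told apart.

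The fold change was positive for 31 of the 38 genes (81.6%), against 46.6% of all genes. The median log2 fold change was 0.10 over the list, 0.10 over class I, 0.10 over class II and 0.15 over the RFX complex, against -0.01 over all genes. The knockdown and control arrays did not overlap for 21 of the 38 genes, 19 of them higher in knockdown. That is 55.3% of the list, and 32.7% of all genes did not overlap. Averaged over the 14 class II genes, the centred log2 signal was 0.05 on each of the knockdown arrays and -0.05 on each of the control arrays. The mean over the 21 class I genes was 0.03, 0.04 and 0.06 on knockdown arrays, against -0.03, -0.05 and -0.06 on control arrays.

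**Figure D1:**
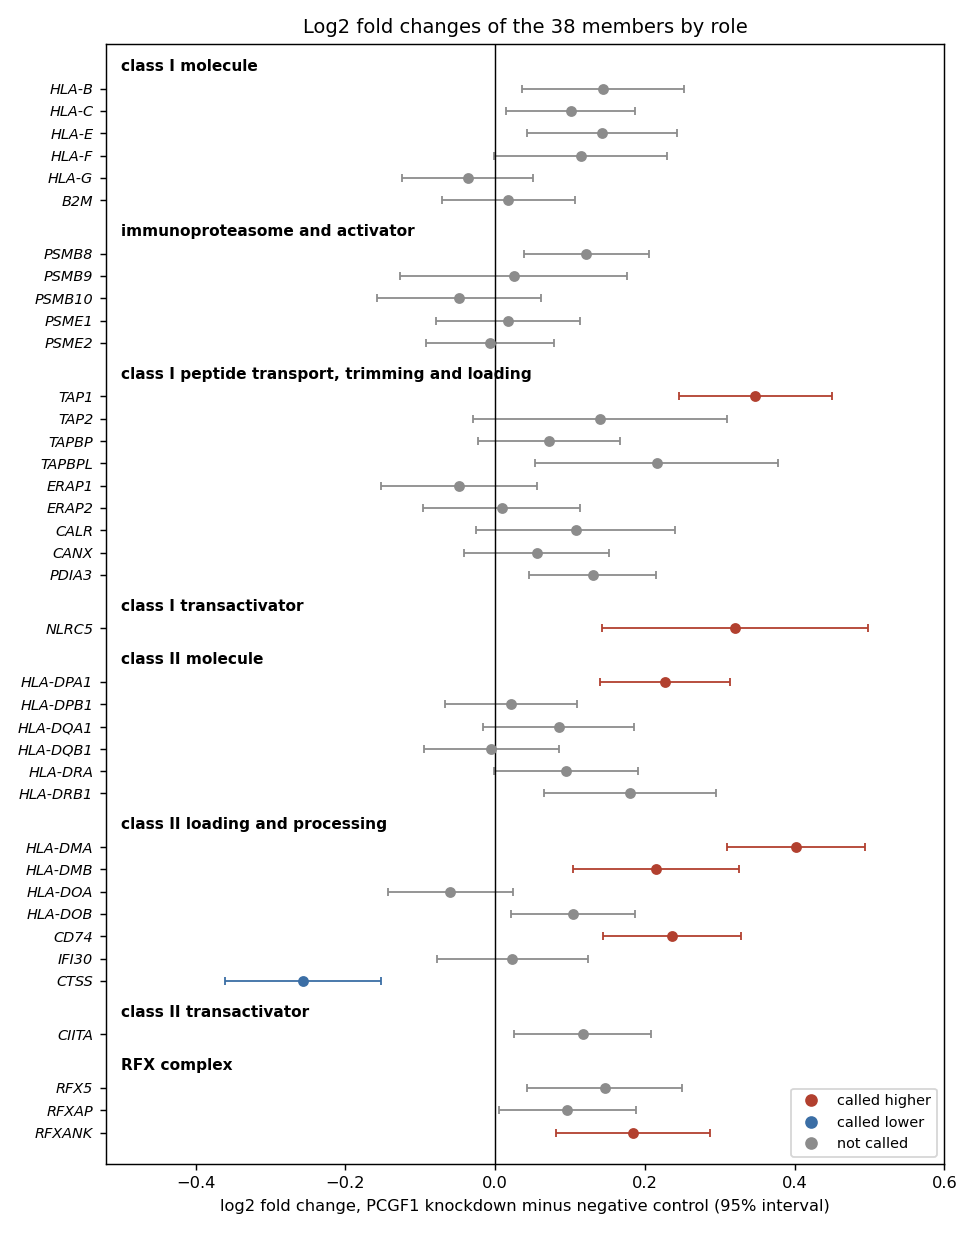
Log2 fold change (x axis, PCGF1 knockdown minus negative control) of the 38 genes with limma's 95% interval, grouped by role down the page. Red marks the 7 genes called higher, blue the 1 called lower and grey the 30 not called; most grey points also lie right of 0.

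None of the 6 genes of the class I molecules themselves passed the limma test, and 3 had an unadjusted p under 0.05 (50%, against 26.6% of all genes). HLA-B, a classical heavy chain, had log2 signals of 0.06, 0.03 and 0.14 on knockdown arrays, against -0.07, -0.11 and -0.02 on control arrays (log2 fold change 0.14, SE 0.05, limma adjusted p = 0.0918). The groups did not overlap, and HLA-C, the other classical heavy chain measured here, and HLA-E, a ligand of natural killer cell receptors, showed the same separation. Their log2 fold changes were 0.10 (adjusted p = 0.129) and 0.14 (adjusted p = 0.0761). HLA-F overlapped between the groups (0.11, adjusted p = 0.193), as did HLA-G (-0.04, adjusted p = 0.595). B2M, beta-2 microglobulin, the light chain that all of these heavy chains need, had a log2 fold change of 0.02 with a 95% interval of -0.07 to 0.11. Its 8 probe sets lay between -0.03 and 0.04, the narrowest range among those of the 38 genes that have more than 3 probe sets.

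The heavy chain values depended on the probe set. The annotation endings _s_at and _x_at mark probe sets that can bind more than 1 transcript, and all probe sets of HLA-C, HLA-E and HLA-G carry them. Among the 36 probe sets of the class I molecules 4 were called higher (11.1%, against 4.3% of all probe sets), 1 of HLA-C, 2 of HLA-E and 1 of HLA-F. For HLA-C the called probe set was at 0.27 (adjusted p = 0.0213) and another was at -0.07. HLA-E probe sets ranged from 0.05 to 0.29 and HLA-F probe sets from -0.16 to 0.28. Signals of these near-identical genes can be mixed, so a value for a single heavy chain gene is uncertain.

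The genes that supply class I peptides gave a mixed picture. None of the 5 genes of the immunoproteasome and its activator was called by limma, and 1 had an unadjusted p under 0.05 (20%, below the 26.6% of all genes). PSMB8, an inducible catalytic subunit, had 0.04, 0.08 and 0.08 on knockdown arrays, against -0.05, -0.05 and -0.07 on control arrays (log2 fold change 0.12, adjusted p = 0.0712). The other inducible subunits overlapped between the groups, PSMB9 at 0.02 (95% interval -0.13 to 0.18) and PSMB10 at -0.05 (-0.16 to 0.06). So did the activator subunits PSME1 at 0.02 and PSME2 at -0.01. PSMB9 was uneven within the knockdown group, with 0.16 on array 2 and -0.07 on arrays 1 and 3.

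TAP1 rose most among the class I genes. Its log2 signal was 0.15, 0.14 and 0.19 on knockdown arrays, against -0.12, -0.19 and -0.24 on control arrays. All knockdown arrays lay above all control arrays. The log2 fold change of 0.35 passed the test (SE 0.04, limma adjusted p = 0.00324), with the 2 probe sets at 0.32 and 0.37. TAP2, the other subunit of the transporter, had 0.07, -0.02 and 0.14, against 0.07, -0.20 and -0.10, and its groups overlapped (0.14, SE 0.07, adjusted p = 0.274). All 4 of its probe sets were positive, between 0.10 and 0.21. Whether TAP1 and TAP2 differed in response was not tested.

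The loading chaperones and trimming enzymes were not called. PDIA3, a thiol oxidoreductase of the loading complex, had a log2 fold change of 0.13 (adjusted p = 0.0614) and TAPBPL, a peptide editor related to tapasin, one of 0.22 (adjusted p = 0.0916), and the groups of both were separate. Tapasin itself (TAPBP) was at 0.07, the lectin chaperones CALR and CANX at 0.11 and 0.06, and the trimming aminopeptidases ERAP1 and ERAP2 at -0.05 and 0.01. All of these 5 overlapped between the groups (adjusted p between 0.286 and 0.932). Single probe sets of TAPBP (0.22, adjusted p = 0.0485) and TAPBPL (0.37, adjusted p = 0.0486) were called higher. Probe sets pointed in opposite directions for ERAP1 (-0.25 to 0.10), ERAP2 (-0.18 to 0.15), TAPBP (-0.05 to 0.22) and CANX (-0.05 to 0.14).

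NLRC5, which drives transcription of class I genes, rose. It had log2 signals of 0.09, 0.18 and 0.38 on knockdown arrays, against -0.10, -0.03 and -0.19 on control arrays. The knockdown arrays were all higher but spread widely. The log2 fold change of 0.32 passed the test (SE 0.08, limma adjusted p = 0.0367), with probe sets at 0.31 and 0.33. Only the first of these was called by itself (adjusted p = 0.0228), and the other was not (adjusted p = 0.303). With the second probe set alone, as when _s_at and _x_at probe sets are left out, NLRC5 did not pass (0.33, adjusted p = 0.280). With both probe sets the call was lost when knockdown replicate 2 or 3 or any 1 of the control replicates was left out, the adjusted p without each array in turn lying between 0.0352 and 0.107.

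**Figure D2:**
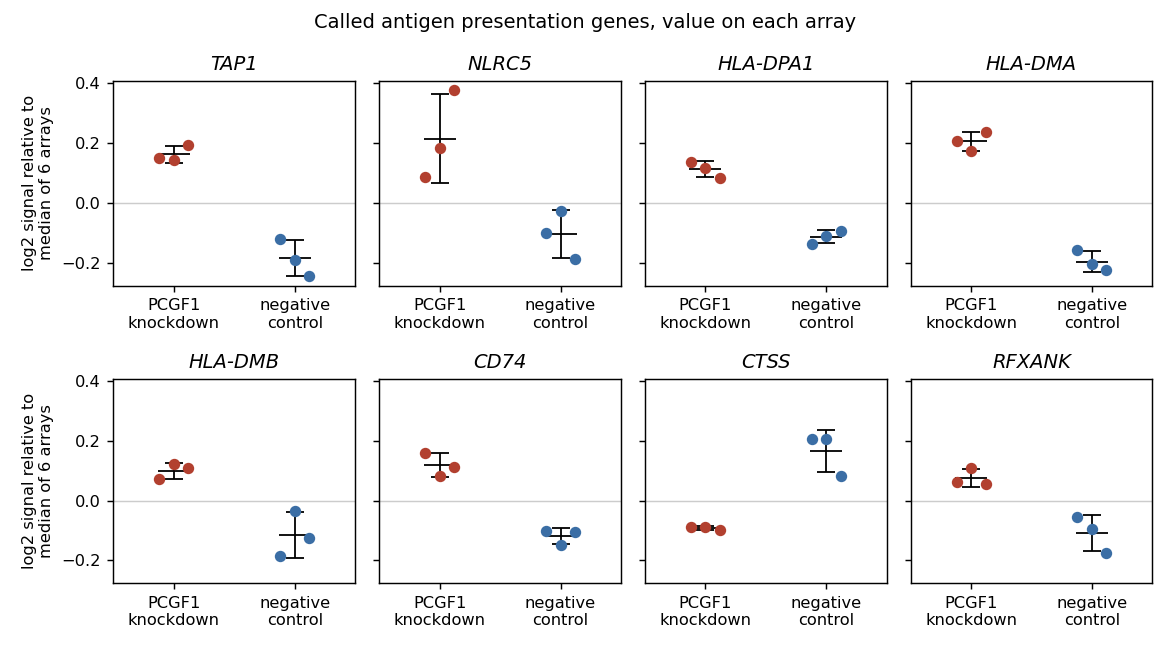
Centred log2 signal (y axis) of the 8 called genes on each array, PCGF1 knockdown on the left and negative control on the right of each panel; points are arrays, horizontal lines means and bars SD (n = 3 each). In every panel the groups are separate, with CTSS lower and the other 7 genes higher in knockdown, and NLRC5 has the widest spread.

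In the class II pathway 4 of 14 genes rose (28.6%, against 6.36% of all genes) and 1 fell (7.14%, against 4.63%), and 3 of those that rose serve peptide loading. HLA-DMA had log2 signals of 0.21, 0.17 and 0.24 on knockdown arrays, against -0.16, -0.20 and -0.23 on control arrays. This is the widest gap between group means of the 38 genes. The log2 fold change of 0.40 passed the test (SE 0.04, limma adjusted p = 0.00114), and its 2 probe sets were at 0.39 and 0.41. HLA-DMB, the partner chain of HLA-DM, had 0.07, 0.12 and 0.11, against -0.19, -0.03 and -0.12 (0.21, SE 0.05, adjusted p = 0.0285). All 5 probe sets of HLA-DMB were positive, from 0.04 to 0.35. The HLA-DMB call was lost without any 1 of the knockdown replicates or without control replicate 1 or 3, with adjusted p between 0.0287 and 0.0881 over the 6 fits that leave out an array. CD74, the chaperone that fills the class II groove until HLA-DM exchanges its remnant for a peptide, had 0.16, 0.08 and 0.11, against -0.10, -0.15 and -0.10. Its log2 fold change was 0.24 (SE 0.04, adjusted p = 0.0102), with all 5 probe sets between 0.20 and 0.28. Only 1 of these 5 lacks an _s_at or _x_at ending, and with that probe set alone CD74 did not pass (0.20, adjusted p = 0.125).

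Promoter sequences are shown for HLA-DMA, HLA-DMB and CD74, because these loading genes rose together, and for TAP1 as the class I gene that rose most. Each line gives the 150 bases before the annotated start, 5′ to 3′ on the gene's strand, from RefSeq on GRCh38.p14. Capitals mark matches on either strand to 4 short motifs, which were set after these promoters had been seen. The X1 motif is ACNGATG, a part of the box to which RFX binds. The CCAAT motif is the core of the NF-Y site. The interferon motif is GAAANNGAA, from the interferon response element. The NF-kB motif is GGGANTTTC, a form of the site of that factor.
HLA-DMA (chr6:32953098-32953247, minus strand): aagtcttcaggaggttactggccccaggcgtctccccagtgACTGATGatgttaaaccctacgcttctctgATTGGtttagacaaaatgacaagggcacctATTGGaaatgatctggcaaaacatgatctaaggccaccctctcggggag
HLA-DMB (chr6:32941029-32941178, minus strand): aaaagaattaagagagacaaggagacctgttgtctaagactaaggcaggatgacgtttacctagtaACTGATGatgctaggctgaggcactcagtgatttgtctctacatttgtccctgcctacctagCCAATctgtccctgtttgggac
CD74 (chr5:150412911-150413060, minus strand): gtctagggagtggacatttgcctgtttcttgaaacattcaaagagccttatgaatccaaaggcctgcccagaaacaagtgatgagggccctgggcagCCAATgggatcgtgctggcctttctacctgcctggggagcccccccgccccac
TAP1 (chr6:32853705-32853854, minus strand): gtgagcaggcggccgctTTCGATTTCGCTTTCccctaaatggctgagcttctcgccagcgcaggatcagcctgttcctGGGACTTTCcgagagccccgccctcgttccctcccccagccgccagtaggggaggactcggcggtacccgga

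In HLA-DMA the X1 match lies 109 to 103 bases before the start, and CCAAT matches lie on the opposite strand at 79 to 75 and 49 to 45. HLA-DMB has an X1 match at 84 to 78 and a CCAAT match at 22 to 18. CD74 has a CCAAT match at 53 to 49. Both of these CCAAT matches are on the gene's own strand. In TAP1, 2 interferon motif matches on the opposite strand overlap each other, at 133 to 125 and 127 to 119, and the NF-kB match is at 72 to 64. Over the same 150 bases, the X1 motif occurred in 3.61% of 35116 RefSeq promoters, the CCAAT motif in 23.5%, the interferon motif in 3.98% and the NF-kB motif in 0.689%. Of the 38 genes 32 had promoter entries, 47 in all. The X1 motif was found in 4 of these entries, the CCAAT motif in 17, the interferon motif in 8 and the NF-kB motif in 2. The interferon motif entries belong to TAP1, TAP2, TAPBP, PSMB10, PSME2, ERAP2, B2M and HLA-DRB1, of which TAP1 was called higher and the others were not called. The X1 entries belong to HLA-DMA, HLA-DMB, HLA-DRB1 and HLA-DQB1, of which the first 2 were called higher. Because the motifs were set after the promoters shown had been seen, these counts and matches are no independent test. CIITA, CTSS, HLA-DRA, HLA-E, NLRC5 and PDIA3 had no entry. A match of letters is not a binding site.

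CTSS was the only gene of the 38 called lower. It encodes cathepsin S, the endosomal cysteine protease that trims the invariant chain in antigen presenting cells. Its log2 signal was -0.09, -0.09 and -0.10 on knockdown arrays, against 0.21, 0.21 and 0.08 on control arrays. The knockdown arrays were closely alike and all lay below the control arrays. It fell by 0.26 on the log2 scale (SE 0.05, limma adjusted p = 0.0118), with its 2 probe sets at -0.26 and -0.25.

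The other genes of this group did not pass when averaged over their probe sets. HLA-DOB, a chain of the HLA-DM inhibitor HLA-DO, had a log2 fold change of 0.10 (adjusted p = 0.109) that joined unlike probe sets. One of them had 0.22, 0.23 and 0.16 on knockdown arrays, against -0.19, -0.16 and -0.20 on control arrays (0.39, SE 0.05, limma adjusted p = 0.00460 over all probe sets). The other probe sets of HLA-DOB were at -0.04 and -0.03, so the average does not stand for any of them. HLA-DOA, the partner chain, was at -0.06 (adjusted p = 0.339), with 1 of 5 probe sets called lower (-0.27, adjusted p = 0.0227) and the others between -0.06 and 0.09. IFI30, a lysosomal thiol reductase, was at 0.02 with overlapping groups and rests on 1 probe set.

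Among the 6 class II molecule genes HLA-DPA1 was called. Its log2 signal was 0.14, 0.12 and 0.08 on knockdown arrays, against -0.14, -0.11 and -0.09 on control arrays. The log2 fold change of 0.23 passed the test (SE 0.04, limma adjusted p = 0.00949), and all 4 probe sets were positive, from 0.18 to 0.28, although all 4 carry an _s_at or _x_at ending. HLA-DPB1, which encodes the chain that pairs with it, was at 0.02 (95% interval -0.07 to 0.11), with 7 of 13 probe sets positive and a range of -0.18 to 0.19. HLA-DRB1 had 0.02, 0.14 and 0.15 on knockdown arrays, against -0.02, -0.12 and -0.09 on control arrays. The HLA-DRB1 groups did not overlap, and it came closest to the threshold of the genes not called (0.18, adjusted p = 0.0577). HLA-DRB1 rests on 1 probe set, which carries an _s_at or _x_at ending (limma adjusted p = 0.105 over all probe sets). HLA-DRA, the chain that pairs with HLA-DRB1, was at 0.09 (adjusted p = 0.193), HLA-DQA1 at 0.08 (adjusted p = 0.265) and HLA-DQB1 at -0.01 (adjusted p = 0.952). All 4 probe sets of HLA-DQA1 carry such an ending. For each of these pairs the difference between the partners was not tested.

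CIITA, the class II transactivator, had 0.05, 0.09 and 0.03 on knockdown arrays, against -0.08, -0.02 and -0.09 on control arrays. The groups were separate, and the log2 fold change of 0.12 did not pass (SE 0.04, adjusted p = 0.103). In the RFX complex all 3 genes had positive fold changes and separate groups. Over all genes 46.6% had a positive fold change and 32.7% had separate groups. RFXANK had 0.06, 0.11 and 0.05, against -0.05, -0.09 and -0.17, and was called higher (0.18, SE 0.04, limma adjusted p = 0.0375). It rests on 1 probe set, which did not pass in the fit over all probe sets (adjusted p = 0.0788). The RFXANK call was lost without any 1 of the knockdown replicates or without control replicate 2 or 3, with adjusted p between 0.0498 and 0.112. RFX5, the DNA-binding subunit, was at 0.15 (adjusted p = 0.0771) and RFXAP at 0.10 (adjusted p = 0.164).

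**Figure D3:**
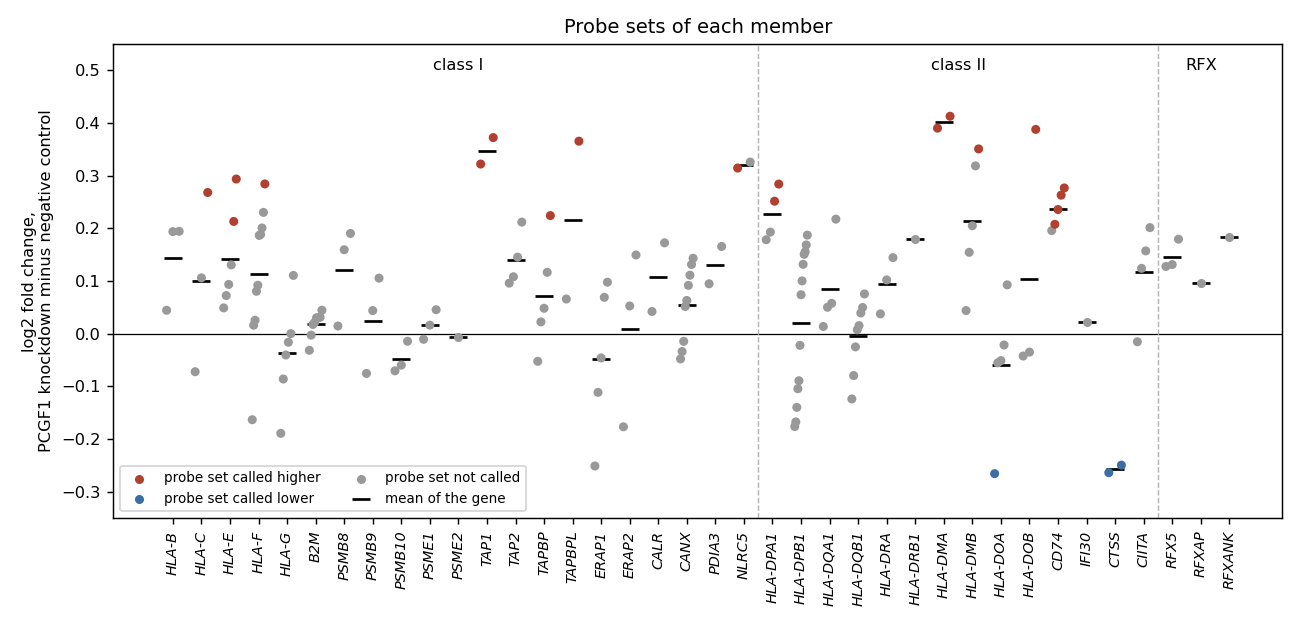
Log2 fold change (y axis, PCGF1 knockdown minus negative control) of each of the 150 probe sets, by gene along the x axis; red and blue points were called higher and lower over all probe sets, grey points were not called and black bars are gene means. HLA-DMA, TAP1, CD74 and CTSS have probe sets close together, while those of HLA-DPB1, HLA-DOB and HLA-F lie far apart.

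Over the 150 probe sets 19 were called higher and 3 lower, 14.7% against 7.24% of all probe sets (4.3% higher and 2.94% lower). The class II genes had 10 higher and 3 lower of 60 (21.7%), and the class I genes 9 higher and 0 lower of 85 by limma (10.6%). An unadjusted p under 0.05 was found for 24 of these 85 (28.2%), near the 23.2% of all probe sets. Of the 33 genes with several probe sets, 18 had all of them on the same side of 0. In 7 genes that were not called, HLA-C, HLA-E, HLA-F, TAPBP, TAPBPL, HLA-DOA and HLA-DOB, a probe set was called. On chromosome 6, which carries the MHC, 4 of 20 genes were called higher and 0 lower, and on other chromosomes 3 of 18 were higher and 1 lower. Over all genes 6.36% were called higher and 4.63% lower. Some neighbouring genes passed together and others did not, in the RefSeq order of protein-coding genes. HLA-DMA and HLA-DMB lie next to each other, and both rose. TAP1, at 0.35, lies between PSMB8, at 0.12, and PSMB9, at 0.02, neither of which was called.

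Related genes were counted in lists of their own. Over the 10 lists 7 of 113 genes rose and 4 fell, 9.73% of them, which is near the 11% of all genes. In interferon gamma signalling 1 of 13 measured genes rose and 1 fell (15.4%, against 11% of all genes), with a median of 0.01. JAK1, a kinase of the interferon receptors, rose by 0.27 (SE 0.04, limma adjusted p = 0.00717), and SOCS1, an inhibitor of JAK kinases, fell by 0.22 (SE 0.06, adjusted p = 0.0457). None of 16 genes of the constitutive proteasome and other activators was called by limma. Their median was -0.06, 11 of the 16 were negative and 8 did not overlap, all of them lower in knockdown. That is 50% of the list, and 32.7% of all genes did not overlap. None of 8 genes of NF-Y, CREB1 and chromatin cofactors (median 0.00) was called by limma. Nor was any of 10 genes of chaperones and the translocon of the endoplasmic reticulum and of cytosolic peptidases (median 0.04). An unadjusted p under 0.05 was found for 26.6% of all genes. It was found for 3 of the proteasome genes (18.8%), 1 of the 8 (12.5%) and 4 of the 10 (40%). The 1 gene of the 8 was EZH2, a Polycomb methyltransferase gene, named after its value was seen. Its log2 fold change was -0.16 (limma adjusted p = 0.163), and its groups overlapped.

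Of 15 class I-like molecules and ligands of the NKG2D receptor 1 rose (6.67%, near the 6.36% of all genes). The gene was MICA, a stress-induced ligand of that receptor. It had 0.15, 0.21 and 0.14 on knockdown arrays, against -0.13, -0.23 and -0.22 on control arrays (0.36, SE 0.04, limma adjusted p = 0.00270). Among 10 costimulatory and coinhibitory ligands 3 rose (30%, against 6.36% of all genes) and 0 fell, although the median of the list was -0.02. TNFSF9, the ligand of the costimulatory receptor 4-1BB, rose by 0.45 and CD276, also called B7-H3, by 0.36. Among 10 endosomal proteases and cystatins 1 rose (10%, against 6.36% of all genes) and 1 fell (10%, against 4.63%). The groups did not overlap for 9 of these 10, 5 higher and 4 lower in knockdown (90%, against 32.7% of all genes). CTSD, cathepsin D, rose by 0.25 (adjusted p = 0.0395), and CTSL, cathepsin L, fell by 0.21 (adjusted p = 0.0133). CTSL had -0.10, -0.13 and -0.08 on knockdown arrays, against 0.12, 0.12 and 0.08 on control arrays, separate groups as for CTSS.

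Cell markers made up the remaining lists. Of 15 leukocyte markers 0 were called higher (6.36% of all genes were) and 2 lower (13.3%, against 4.63% of all genes). These 2 were LYZ (lysozyme, -0.19, adjusted p = 0.0291) and CD79A (a B cell receptor chain, -0.18, adjusted p = 0.0484, limma). The mean centred log2 signal of the list lay between -0.04 and -0.03 on knockdown arrays and was 0.02 on every control array. Of 6 endothelial markers 0 were called by limma and 1 had an unadjusted p under 0.05 (16.7%, against 26.6% of all genes). All 6 had negative fold changes. The part of these markers in the class II values was not tested. Of 10 glial and glioma markers 1 rose (10%, against 6.36% of all genes), and the median was -0.05. The gene was CHI3L1, a secreted glycoprotein, which rose by 0.46 (SE 0.05, limma adjusted p = 0.00151). Because the values are centred, it is not known which of these markers were at background.

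**Figure D4:**
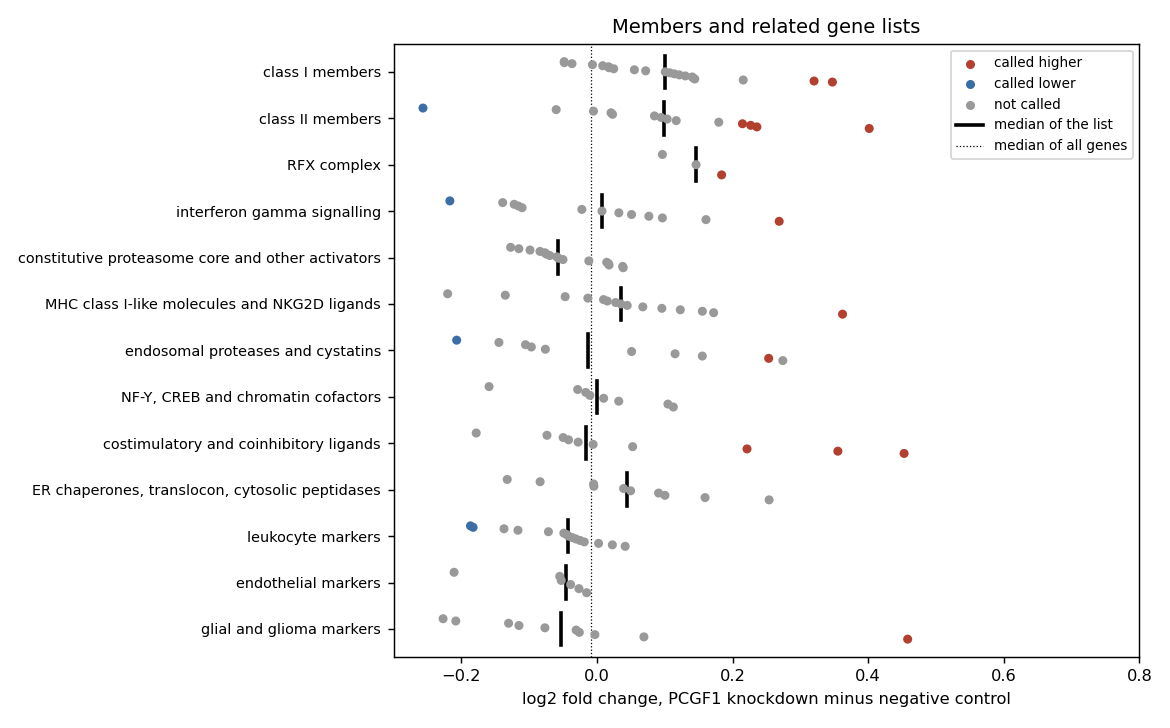
Log2 fold change (x axis, PCGF1 knockdown minus negative control) of each gene in the class I, class II and RFX groups and in 10 related lists down the page; red and blue points were called higher and lower, black bars are list medians and the dotted line is the median of all genes. The class I and class II medians are both 0.10, and the leukocyte, endothelial and glial marker lists have medians of -0.04 to -0.05.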

How the data were processed

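RNA of 6 samples was measured on Affymetrix arrays, 3 per group. The deposited table holds log2 values that the authors made with RMA, per the submitters' processing notes, with no version. RMA sets the log base, which the table does not state. In every probe set the median of the 6 arrays is 0 (largest departure 4.85e-07), a centring not described in the sources used here, so brightness and background are unknown. Array medians lay between -0.00238 and 0.00399, and nothing was renormalized. After 102 control probe sets were removed, 49293 remained, 44988 of them with 1 gene symbol, 1832 with several and 2473 with none. A gene is the mean of its single-symbol probe sets. Symbols of all 150 member probe sets matched RefSeq (GRCh38.p14).

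Groups were compared with limma 3.58.1 in R 4.3.3 (lmFit, eBayes, two-sided, no covariates), with Benjamini-Hochberg adjustment over all genes, or all probe sets, and a threshold of 0.05. The procedure was tested on simulated data. Called members are described with each array's value; of each related list at most the 2 largest called rises and 2 largest called falls are named. The 38 members and all lists were chosen with earlier results of these data known. Of the listed related genes 8 were not analysed here. Alternatives were quantile normalization, median centring, array weights, a replicate block, the most variable probe set per gene, omission of _s_at and _x_at probe sets, robust eBayes and leaving out each array. The number of arrays limits precision.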

Additional observations from a re-analysis of the deposited data

How the results depend on the processing

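HLA-DMA, TAP1, HLA-DPA1 and CTSS kept their direction and their call under every alternative that gave them a value. HLA-DPA1 has none without the _s_at and _x_at probe sets, a setting that measures 30 of the 38 genes. CD74 lost its call only there. HLA-DMB was lost under 6 of 13 alternatives and NLRC5 and RFXANK each under 8 of 13, and none of the 8 genes reversed.

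Leaving out each array in turn gave 4 to 6 members higher (7 with all arrays), 1 to 2 in class I and 3 to 4 in class II, 4 to 10 member probe sets higher and 0 to 2 lower, 0 to 2 related genes lower, and 553 to 812 genes higher and 395 to 590 lower over all genes, with fewer samples in each fit. With the replicate block 4 members were higher, 1 in class I, with 5 member probe sets higher and 0 lower, 0 related genes lower, and 596 genes higher and 440 lower over all genes. Same-numbered arrays did not deviate together over all probe sets (correlations -0.04, -0.06 and -0.001). The labels give them only a shared number, and a link that acts on some genes was not tested. The block uses up residual degrees of freedom. Without _s_at and _x_at probe sets 4 members were higher, 1 in class I, with 7 member probe sets higher and 1 lower and 2 related genes lower. With the most variable probe set per gene 2 members were lower, both in class II, and 1 related gene was lower, and the median over members was 0.17. Array weights gave 2 related genes lower. The cause of these shifts was not tested. Quantile normalization, median centring and robust eBayes moved no count of members or member probe sets by over 1.5 times.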

Other observations

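A further 10 probe sets name a listed gene together with other genes and were used for no gene. By limma 0 of them were called higher or lower over all probe sets (lowest adjusted p = 0.0668). Their log2 fold changes lay between -0.05 and 0.20, with a median of 0.02 and 6 of 10 positive.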
